A study of Mus musculus with 16 samples.

Results

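The genes described here are 34 genes listed for the distal nephron in mouse kidney, taken by symbol from the 55359 genes of the count files. They comprise 7 genes of the thick ascending limb, 8 of the distal convoluted and connecting tubule, 4 of the WNK kinase pathway, 10 of the collecting duct principal cell and 5 of the intercalated cell. Not all are particular to these segments, since ovary also expressed some abundantly, among them Sgk1, Wnk1 and Stk39. The list was made from gene names and not by a rule on measured values, but earlier results of these data were known. Kidney and ovary were taken from wild-type (genotype WT) female CBAF1 mice that were 21 days old. In each organ 4 libraries came from mice given PT-2385 and 4 from mice given vehicle, 16 libraries in all. PT-2385, a small molecule that blocks the hypoxia-inducible factor HIF-2α, was injected intraperitoneally in saline at 7.5 mg/kg every 12 h for 4 days. Vehicle mice received 5% DMSO in saline on the same schedule. All mice of both groups also received 5 IU PMSG and then 5 IU hCG, hormones that together induce ovulation, with 48 h of PMSG and collection 13 h after hCG. The labels do not say that each library is a separate animal, so the p-values measure the spread between these libraries, which may be technical.

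The distal nephron begins with the thick ascending limb, which reabsorbs sodium, potassium and chloride without water and so dilutes the urine. The distal convoluted tubule takes up further sodium chloride and magnesium, the connecting tubule takes up calcium, and WNK kinases set the activity of the salt cotransporters of these segments. In the collecting duct, principal cells reabsorb sodium under aldosterone and water under vasopressin, and intercalated cells secrete acid or base.

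Assigned read pairs ran from 12.7 to 43.3 M in the 4 PT-2385 kidney libraries and from 23.3 to 27.0 M in the 4 vehicle kidney libraries (M is the SI prefix mega). The shallowest and the deepest library were PT-2385 replicates 2 and 3. The deposited name of PT-2385 replicate 3 also carries a flow-cell code of its own. Transcripts of Epas1, which encodes HIF-2α, averaged 197 ± 8.14 CPM with PT-2385 and 195 ± 9.05 CPM with vehicle in kidney (SD, n = 4 each). CPM are read pairs of a gene per M assigned read pairs, after scaling for library composition (TMM). All 34 genes had read pairs in kidney, and the ovary markers Foxl2, Cyp19a1, Fshr and Zp3 had no read pair in any of the 8 kidney libraries.

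In kidney, 3 of the distal nephron genes rose with PT-2385 and 1 fell. Sgk1, an aldosterone-induced kinase, was 1.38-fold higher, Pvalb, a calcium-binding protein of the early distal convoluted tubule, was 1.23-fold higher, and Bsnd, the accessory subunit barttin, was 1.19-fold higher. Aqp4, a basolateral water channel of principal cells, was lower at 0.783-fold. The other 29 genes tested, among them both salt cotransporters, all 3 subunits of the sodium channel ENaC and the vasopressin-regulated water channel Aqp2, did not pass the test. Changes were small throughout, with log2 fold changes between -0.35 and 0.46.

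Of the 34 genes, 33 had enough counts to be tested by edgeR's quasi-likelihood test, with calls at an adjusted p under 0.05 over all genes. The rate over all 17763 genes tested was 5.53%, made up of 1.83% called higher and 3.7% called lower, against 3 and 1 of the 33. Before adjustment, 13 of the 33 had a p under 0.05, against 23.1% of all genes. The median log2 fold change was 0.07 over the 33 genes and 0.01 over all genes, and 22 of the 33 were above 0, against 51.5% of all genes. The 4 PT-2385 libraries lay above all 4 vehicle libraries for 3 genes (Bsnd, Slc12a3 and Sgk1), which 5.37% of all genes did, and below them for 2 (Aqp4 and Nr3c2), which 7.89% did. These shares are descriptions, and nothing particular to the list is read from them. The count of 4 became 1 without PT-2385 replicate 3, 2 without PT-2385 replicate 4, 2 without vehicle replicate 1, 2 without vehicle replicate 2 and 9 without vehicle replicate 3. Without both PT-2385 libraries of unusual depth it was 1, the gene Sgk1.

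**Figure D1:**
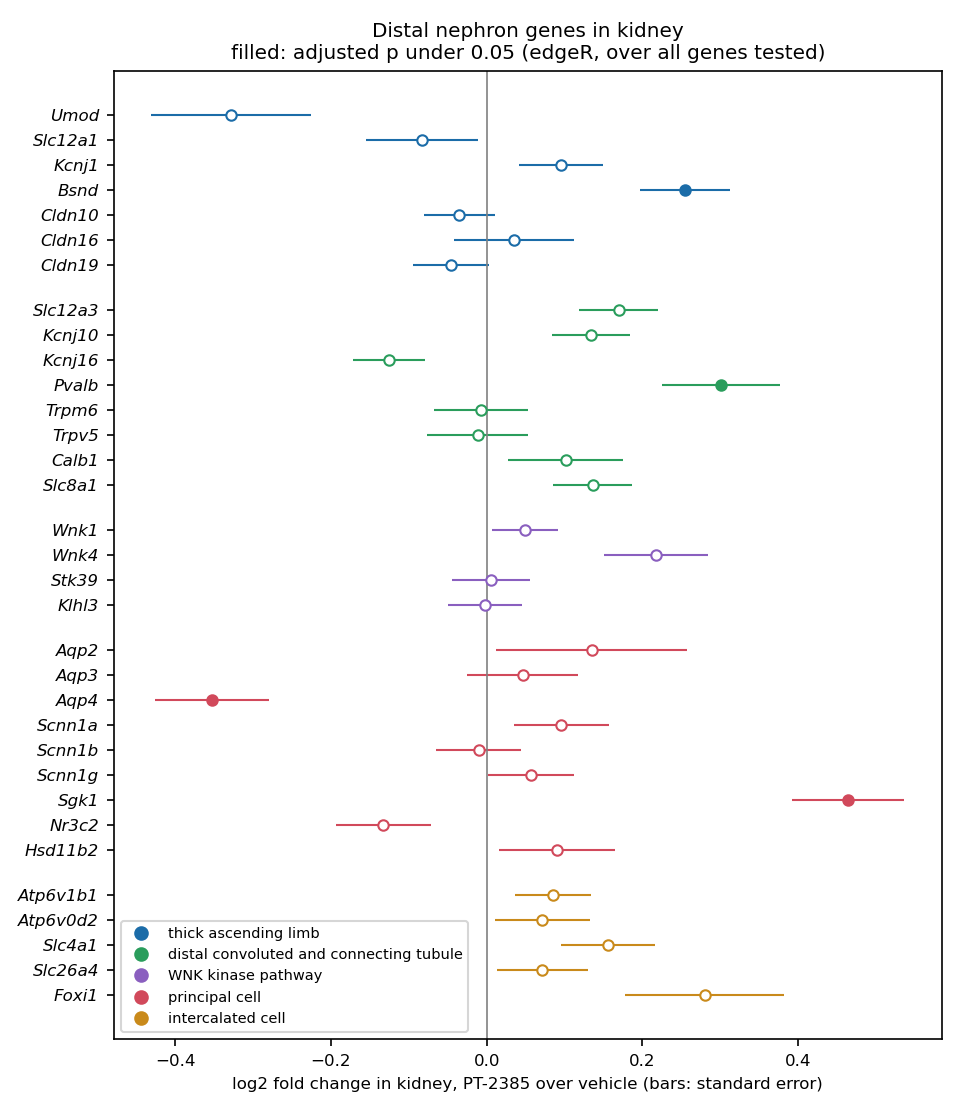
Log2 fold change in kidney (PT-2385 over vehicle, horizontal axis) of the 33 distal nephron genes tested, grouped by segment; bars are standard errors of the fit and filled points have an adjusted p under 0.05. Sgk1, Pvalb and Bsnd are filled to the right of 0 and Aqp4 to the left, and the other 29 points are open.

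By segment, 1 of 7 thick ascending limb genes was called higher, and so was 1 of 8 of the distal convoluted and connecting tubule. Of the 9 principal cell genes tested, 1 was called higher and 1 lower. In the WNK pathway 0 of 4 genes were called, and in intercalated cells 0 of 5. The shares over all genes tested were 1.83% higher and 3.7% lower, and no pattern by segment is read from these counts. Median log2 fold changes over the segments ran from -0.04 in the thick ascending limb and 0.03 in the WNK pathway to 0.06 in principal cells, 0.09 in intercalated cells and 0.12 in the distal convoluted and connecting tubule. The summed CPM overlapped between the groups in 4 of the 5 gene groups. The exception, by a narrow margin, was the WNK pathway. Its 4 genes summed to between 1208 and 1252 CPM with PT-2385 and between 1129 and 1206 CPM with vehicle. Of these genes Wnk4 differed most, averaging 383 CPM with PT-2385 and 330 CPM with vehicle, and its own values overlapped. Stk39 and Klhl3 hardly differed, so the 4 genes did not move together. The 7 thick ascending limb genes summed to between 3368 and 3981 CPM with PT-2385 and between 3713 and 4521 CPM with vehicle. The 8 distal convoluted and connecting tubule genes summed to between 3016 and 3103 CPM with PT-2385 and between 2719 and 3068 CPM with vehicle. In these bulk samples fewer cells of a segment and less RNA per cell cannot be told apart.

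**Figure D2:**
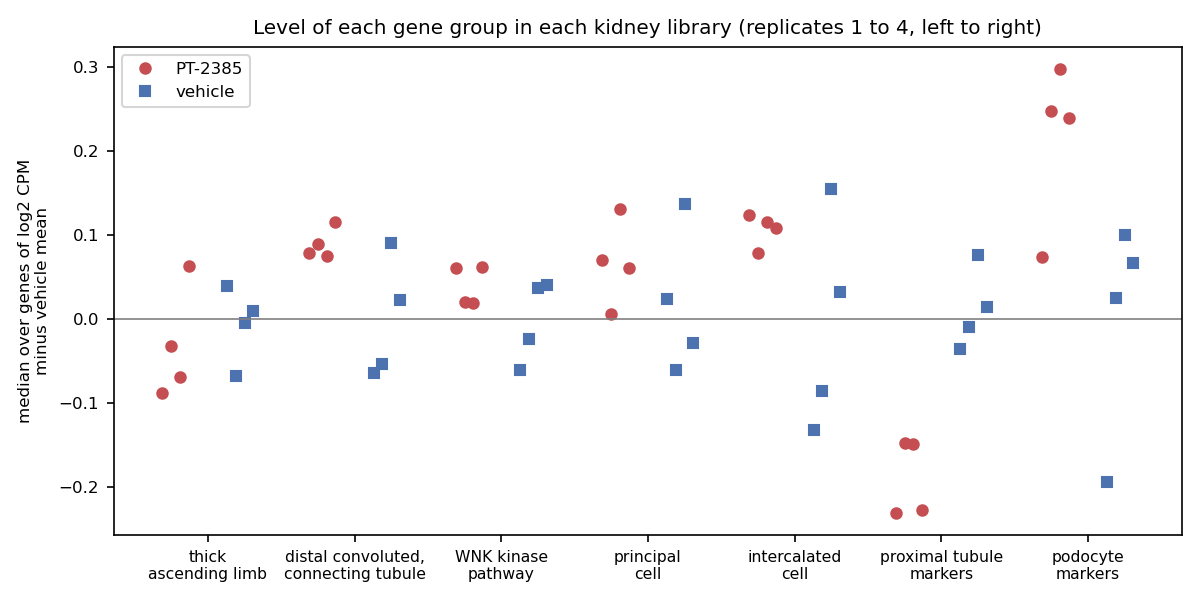
Level of each gene group in each of the 8 kidney libraries, as the median over its genes of log2 CPM minus the mean of the vehicle libraries (vertical axis); circles are PT-2385, squares vehicle. Proximal tubule markers lie between -0.23 and -0.15 in the PT-2385 libraries and between -0.04 and 0.08 in the vehicle libraries. PT-2385 and vehicle libraries overlap in each of the 5 distal gene groups.

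The segment levels of single libraries show where the spread lay. For the distal convoluted and connecting tubule, the median difference from the vehicle mean was 0.08, 0.09, 0.08 and 0.12 (log2) in PT-2385 replicates 1 to 4, against -0.06, -0.05, 0.09 and 0.02 in vehicle replicates 1 to 4. For the intercalated cell it was 0.12, 0.08, 0.12 and 0.11 with PT-2385, against -0.13, -0.08, 0.16 and 0.03 with vehicle. In both segments the PT-2385 libraries lay together, and vehicle replicate 3 lay among or above them, while vehicle replicates 1 and 2 were low. Vehicle replicate 3 had the highest vehicle value for 19 of the 33 genes, and vehicle replicates 1 and 2 had the lowest for 12 each. Among the PT-2385 libraries, replicate 4 was highest for 13 genes and replicate 2, the shallowest, lowest for 13. The median coefficient of variation of the 33 genes was 4.92% in the PT-2385 libraries and 6.14% in the vehicle libraries, against 4.98% with PT-2385 and 6.07% with vehicle for all tested genes with at least 10 CPM.

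In the thick ascending limb, Umod encodes uromodulin, the most abundant protein of normal urine. Umod was measured at 1047, 1354, 1259 and 1294 CPM in PT-2385 kidneys, against 1737, 1714, 1314 and 1454 CPM in vehicle kidneys. Vehicle replicates 1 and 2 were the highest and PT-2385 replicate 1 the lowest, and the groups overlapped because PT-2385 replicate 2 passed vehicle replicate 3. Its log2 fold change was -0.33 ± 0.10 (SE) with an adjusted p of 0.0919. It passed without vehicle replicate 3 (adjusted p 0.0251) and with DESeq2 (adjusted p 0.00903). The exons of Umod share 20.5% of their bases with Gm44588 on the opposite strand, which had 0 counts in all 16 libraries.

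Slc12a1, the sodium-potassium-chloride cotransporter NKCC2 that loop diuretics block, had 1603, 1707, 1586 and 1894 CPM in PT-2385 kidneys, against 2070, 1710, 1686 and 1728 CPM in vehicle kidneys. The groups overlapped, and vehicle replicate 1 stood above the other 7 libraries. Slc12a1 had a log2 fold change of -0.08 ± 0.07 (adjusted p 0.529), and it was -0.01 without vehicle replicate 1.

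Bsnd lies on chromosome 4 at 106340653 to 106349480 (GRCm39, minus strand) and encodes barttin, an accessory subunit for basolateral chloride transport in the thick ascending limb and later segments. It had 106, 99.5, 116 and 119 CPM in PT-2385 kidneys, against 93.5, 86.3, 93.9 and 96.2 CPM in vehicle kidneys. All 4 PT-2385 libraries lay above all 4 vehicle libraries. Bsnd averaged 110 ± 8.81 CPM with PT-2385 and 92.5 ± 4.28 CPM with vehicle (SD, n = 4 each), a log2 fold change of 0.26 ± 0.06 (SE) with an adjusted p of 0.0196. The call was lost without PT-2385 replicate 3 (adjusted p 0.0878), without PT-2385 replicate 4 (0.0814), without vehicle replicate 2 (0.0800), without both PT-2385 libraries of unusual depth (0.0629) and in the fit of all 16 libraries (0.350). Its exons share 10.7% of their bases with a gene model without a symbol that held 2 counts over the 16 libraries.

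The remaining genes of the thick ascending limb moved little. Kcnj1, the apical potassium channel ROMK that recycles potassium for NKCC2, had a log2 fold change of 0.10 (adjusted p 0.312). The claudins that form the paracellular cation pathway had log2 fold changes of -0.04 for Cldn10, 0.04 for Cldn16 and -0.05 for Cldn19. Cldn10 had the smallest spread of the 33 genes over the vehicle libraries, with a coefficient of variation of 4.74% with PT-2385 and 0.653% with vehicle.

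In the distal convoluted tubule, Slc12a3 encodes the thiazide-sensitive sodium chloride cotransporter NCC. It had 1121, 1190, 1215 and 1256 CPM in PT-2385 kidneys, against 1029, 1012, 1110 and 1101 CPM in vehicle kidneys. Every PT-2385 library was above every vehicle library, with PT-2385 replicate 1 just above vehicle replicate 3. A log2 fold change of 0.17 ± 0.05 did not pass the test (adjusted p 0.0631). It passed in 4 of 18 alternatives, among them without vehicle replicate 3 (adjusted p 0.0400), with DESeq2 (0.0155) and with no filter (0.0188).

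Pvalb, on chromosome 15 at 78075314 to 78090600 (GRCm39, minus strand), encodes parvalbumin, a calcium buffer that marks the early distal convoluted tubule. It had 63.3, 55.6, 57.8 and 58.6 CPM in PT-2385 kidneys, against 42.3, 43.98, 56.0 and 49.2 CPM in vehicle kidneys. The groups touched, since vehicle replicate 3 was slightly above PT-2385 replicate 2. Pvalb averaged 58.8 ± 3.25 CPM with PT-2385 and 47.8 ± 6.15 CPM with vehicle (SD, n = 4 each), a log2 fold change of 0.30 ± 0.08 (SE) with an adjusted p of 0.0342. The call was lost when any of 5 single libraries was left out, at adjusted p of 0.0919 without PT-2385 replicate 1, 0.0917 without PT-2385 replicate 3, 0.0931 without PT-2385 replicate 4, 0.0587 without vehicle replicate 1 and 0.112 without vehicle replicate 2. It was also lost without both PT-2385 libraries of unusual depth (0.110) and in the fit of all 16 libraries (0.141).

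Kcnj10 and Kcnj16 encode Kir4.1 and Kir5.1, which together form the basolateral potassium channel of this segment. Kcnj16 had 510, 501, 475 and 473 CPM in PT-2385 kidneys, against 545, 540, 543 and 509 CPM in vehicle kidneys. Vehicle replicate 4 lay within the PT-2385 range and the other 3 vehicle libraries lay above it. The log2 fold change was -0.13 ± 0.05 for Kcnj16 (adjusted p 0.118) and 0.13 ± 0.05 for its partner Kcnj10 (adjusted p 0.124), so neither passed. With vehicle, Kcnj16 averaged 136 CPM per kb of exon and Kcnj10 24.7 CPM per kb, and which cells made each was not tested.

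The genes for magnesium and calcium uptake did not pass the test either. Trpm6, the apical magnesium channel, and Trpv5, the apical calcium channel, had log2 fold changes of -0.01 each. Calb1, the cytosolic calcium carrier calbindin-D28k, had 0.10, and Slc8a1, a basolateral sodium-calcium exchanger, had 0.14. Without vehicle replicate 3, Slc8a1 passed the test (adjusted p 0.0460).

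In the WNK pathway, Wnk4 encodes the kinase that acts on NCC through the kinase SPAK. It had 386, 351, 410 and 383 CPM in PT-2385 kidneys, against 289, 323, 369 and 337 CPM in vehicle kidneys. Vehicle replicate 3 was above PT-2385 replicate 2, and the other 3 vehicle libraries were below all PT-2385 libraries. Wnk4 had a log2 fold change of 0.22 ± 0.07 (adjusted p 0.0691). It passed in 5 of 18 alternatives, among them without PT-2385 replicate 2 (adjusted p 0.0461), without vehicle replicate 3 (0.0183), with DESeq2 (0.0296) and with no filter (0.00139). Wnk4 shares 7.43% of its exon bases with Gm11615 on the opposite strand, and reads there could not be assigned by strand. Wnk1, Stk39, which encodes SPAK, and Klhl3, which marks WNK kinases for degradation, had log2 fold changes of 0.05, 0.01 and -0.0025. Their values differed little between libraries. Klhl3 had a coefficient of variation of 0.945% over the PT-2385 libraries and 5.44% over the vehicle libraries.

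**Figure D3:**
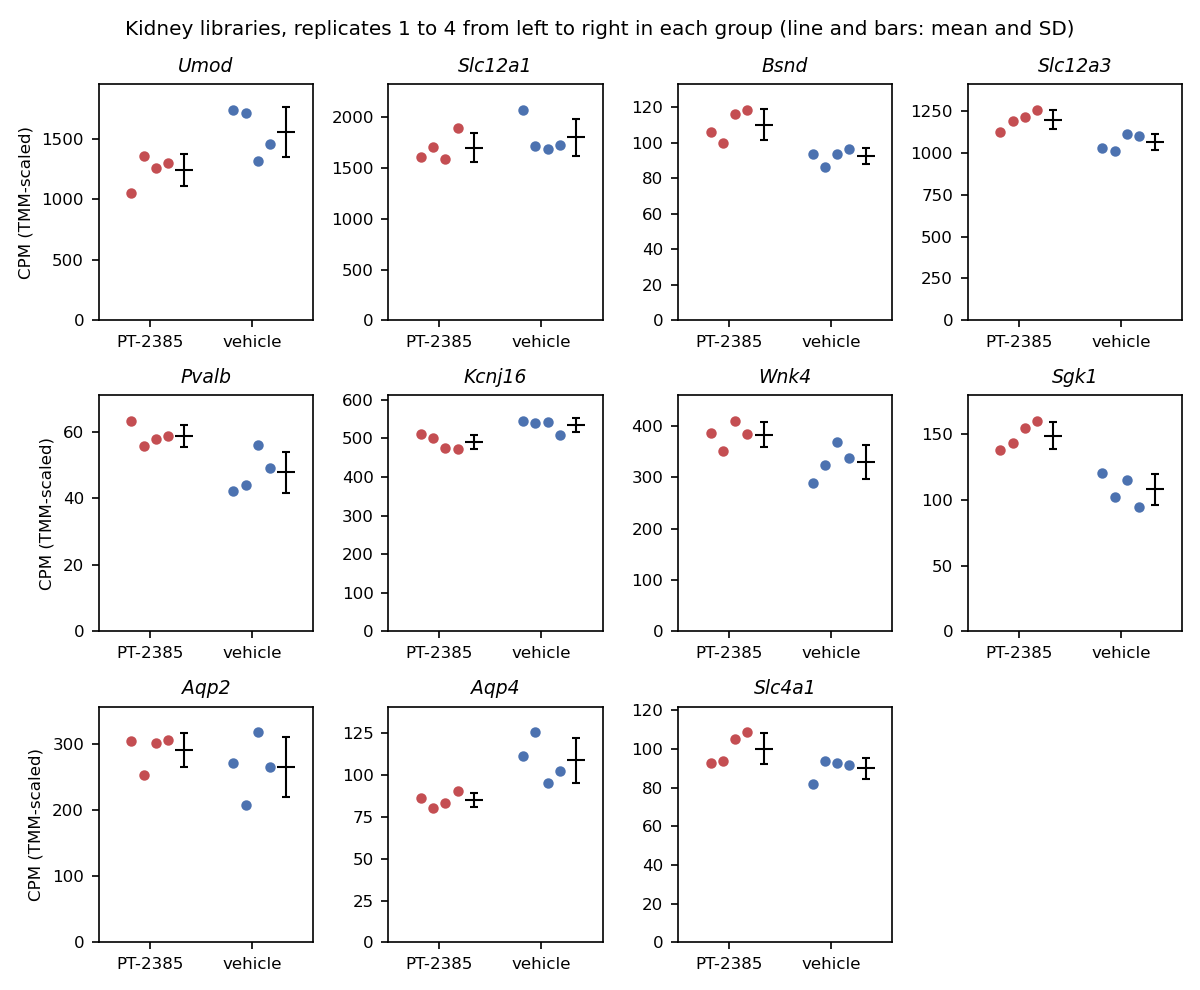
Scaled CPM (vertical axis, from 0) of 11 distal nephron genes in each kidney library, with the 4 PT-2385 libraries left and the 4 vehicle libraries right in each panel; the line and bars give mean and SD. Sgk1, Bsnd and Slc12a3 lie higher and Aqp4 lower in all 4 PT-2385 libraries, and the groups overlap in the other 7 panels.

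Among the principal cell genes, Sgk1 showed the largest change of the 33 genes. SGK1 is a kinase that holds ENaC at the cell surface and is induced by aldosterone, by glucocorticoids and by cell stress, in many cell types besides the principal cell. The gene lies on chromosome 10 at 21758083 to 21875802 (GRCm39, plus strand). Because PT-2385 acts on a transcription factor, the promoter windows of Sgk1 that hold the core letters of a hypoxia response element are shown. RefSeq (GRCm38.p6) gives 6 windows for Sgk1, each from 250 bases before to 50 bases after a transcript start, and 3 of them hold ACGTG or GCGTG on either strand. The matches are in capitals, and in the second window the matches of both strands overlap in CACGTG.
Sgk1 window at chr10:21991973-21992272, plus strand: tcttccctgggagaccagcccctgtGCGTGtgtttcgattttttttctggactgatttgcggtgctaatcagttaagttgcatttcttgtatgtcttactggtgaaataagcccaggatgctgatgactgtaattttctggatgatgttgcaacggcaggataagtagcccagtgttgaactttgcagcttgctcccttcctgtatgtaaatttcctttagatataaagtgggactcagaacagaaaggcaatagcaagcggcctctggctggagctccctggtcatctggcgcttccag
Sgk1 window at chr10:21993640-21993939, plus strand: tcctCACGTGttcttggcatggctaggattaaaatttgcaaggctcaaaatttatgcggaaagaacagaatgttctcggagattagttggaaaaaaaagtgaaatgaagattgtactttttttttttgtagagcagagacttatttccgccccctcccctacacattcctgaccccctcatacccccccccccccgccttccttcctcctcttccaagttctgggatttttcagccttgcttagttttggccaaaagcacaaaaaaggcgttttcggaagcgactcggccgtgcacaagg
Sgk1 window at chr10:21994416-21994715, plus strand: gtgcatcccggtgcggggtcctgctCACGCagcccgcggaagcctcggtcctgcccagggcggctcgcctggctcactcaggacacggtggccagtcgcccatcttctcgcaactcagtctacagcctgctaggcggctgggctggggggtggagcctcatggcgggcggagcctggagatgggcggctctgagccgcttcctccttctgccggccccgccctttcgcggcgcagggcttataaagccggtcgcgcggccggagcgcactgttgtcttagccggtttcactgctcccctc

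These letters are common. They occur in 43.8% of all 32851 promoter windows of the table and in 17 of the 38 windows of the 27 distal nephron genes found in it (44.7%). A match is therefore a description of the sequence and not a binding site.

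Sgk1 had 138, 143, 154 and 160 CPM in PT-2385 kidneys, against 120, 102, 115 and 94.2 CPM in vehicle kidneys. All 4 PT-2385 libraries lay above all 4 vehicle libraries. Sgk1 averaged 148.6 ± 10.2 CPM with PT-2385 and 107.9 ± 11.9 CPM with vehicle (SD, n = 4 each), a rise of 38.0%. The log2 fold change was 0.46 ± 0.07 (SE) with an adjusted p of 0.00471. Sgk1 was called in all 18 alternative fits tried, with log2 fold changes between 0.40 and 0.52 and adjusted p between 2.29e-14 and 0.0471.

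Aqp4 is a water channel of the basolateral membrane, where water leaves the principal cell, and in mouse it is also made in part of the proximal tubule. It had 86.2, 80.3, 83.1 and 90.4 CPM in PT-2385 kidneys, against 111, 126, 94.8 and 102 CPM in vehicle kidneys. All 4 PT-2385 libraries lay below all 4 vehicle libraries. Aqp4 averaged 85.0 ± 4.32 CPM with PT-2385 and 108.6 ± 13.3 CPM with vehicle (SD, n = 4 each), a log2 fold change of -0.35 ± 0.07 (SE) with an adjusted p of 0.0156. The call was lost without PT-2385 replicate 3 (adjusted p 0.0651), without vehicle replicate 1 (0.0507), without both PT-2385 libraries of unusual depth (0.153) and in the fit of all 16 libraries (0.124).

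The other water channels of the principal cell did not pass the test. Aqp2, the apical channel that vasopressin moves to the membrane, had 304, 253, 301 and 306 CPM in PT-2385 kidneys, against 271, 208, 318 and 265 CPM in vehicle kidneys. Replicate 2 was the lowest library of each group, vehicle replicate 3 was the highest of all, and the groups overlapped. The log2 fold change of Aqp2 was 0.13 ± 0.12 (adjusted p 0.567), and that of Aqp3, a basolateral water and glycerol channel, was 0.05. The vasopressin receptor gene Avpr2 had too few counted read pairs to test, 42 over the 4 PT-2385 kidneys and 36 over the 4 vehicle kidneys. Its exons share 81.3% of their bases with Arhgap4 on the opposite strand. Reads there could not be assigned by strand, so this count need not reflect the expression of Avpr2.

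The genes of ENaC and of mineralocorticoid reception did not pass the test. Scnn1a, Scnn1b and Scnn1g, the α, β and γ subunits of ENaC, had log2 fold changes of 0.10, -0.01 and 0.06. Hsd11b2, the enzyme that keeps cortisol and corticosterone away from the mineralocorticoid receptor, had 0.09. Nr3c2, the mineralocorticoid receptor, was lower in all 4 PT-2385 libraries than in any vehicle library, with 24.4 ± 1.09 CPM for PT-2385 and 26.7 ± 1.35 CPM for vehicle (SD, n = 4 each). Its log2 fold change of -0.13 ± 0.06 did not pass the test (adjusted p 0.203).

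In the intercalated cell, Slc4a1 encodes the chloride-bicarbonate exchanger AE1 of acid-secreting cells and is also made by red cell precursors. It had 92.9, 93.5, 105 and 109 CPM in PT-2385 kidneys, against 81.9, 93.5, 92.9 and 91.7 CPM in vehicle kidneys. PT-2385 replicates 3 and 4 were the highest and vehicle replicate 1 the lowest, and the rest lay together. Slc4a1 had a log2 fold change of 0.16 ± 0.06 (adjusted p 0.134). The red cell markers, Slc4a1 included, summed to between 580 and 723 CPM with PT-2385 and between 401 and 763 CPM with vehicle, and their part in this result was not tested.

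All 5 intercalated cell genes had a positive log2 fold change and none passed the test. Foxi1, the transcription factor that specifies these cells, had 0.28 ± 0.10 (adjusted p 0.135) and passed in 4 of 18 alternatives, among them without vehicle replicate 3 (adjusted p 0.0433), with DESeq2 (0.0438) and with no filter (0.000182). The proton pump subunits Atp6v1b1 and Atp6v0d2 had 0.09 and 0.07, and Slc26a4, the exchanger pendrin of base-secreting cells, had 0.07.

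Levels can be compared between genes only per length. Per kb of exon, Umod averaged 472 CPM with PT-2385 and 592 CPM with vehicle, and Slc12a1 averaged 344 CPM with PT-2385 and 365 CPM with vehicle. Slc12a3 averaged 254 CPM per kb with PT-2385 and 226 CPM per kb with vehicle, and Aqp2 averaged 205 with PT-2385 and 187 with vehicle on the same scale. The called genes were lower. Per kb, Pvalb averaged 56.5 CPM with PT-2385 and 46.0 CPM with vehicle, Bsnd 39.9 CPM with PT-2385 and 33.6 CPM with vehicle, and Sgk1 36.7 CPM with PT-2385 and 26.6 CPM with vehicle. Aqp4 averaged 14.4 CPM per kb with PT-2385 and 18.4 CPM per kb with vehicle. The lowest of the 33 was Nr3c2, at 3.94 CPM per kb with PT-2385 and 4.32 CPM per kb with vehicle.

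Other genes of the same segments were taken from lists made by name, also with earlier results of these data known. In the thick ascending limb and macula densa, 1 of 14 tested genes rose and 1 fell, against 1.83% of all genes called higher and 3.7% lower. Ppp1r1a, an inhibitor of protein phosphatase 1, averaged 259 ± 17.4 CPM with PT-2385 and 206 ± 22.8 CPM with vehicle, a log2 fold change of 0.33 (adjusted p 0.0176). Slc9a2, a sodium-proton exchanger, averaged 45.0 ± 1.29 CPM with PT-2385 and 52.0 ± 0.846 CPM with vehicle (-0.21, adjusted p 0.0200). Of the 14, 4 had an unadjusted p under 0.05, against 23.1% of all genes. Besides Ppp1r1a and Slc9a2 these were Egf, made in the thick limb and early distal tubule (-0.16), and the calcium-sensing receptor Casr (-0.20). Egf and Casr did not pass after adjustment.

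None of 15 further genes of the distal convoluted and connecting tubule was called, and 1 had an unadjusted p under 0.05. Of 12 regulators of WNK signalling and salt transport 1 fell, Kcnj15, a potassium channel found mainly in the proximal tubule (-0.18, adjusted p 0.0317). An unadjusted p under 0.05 was found for 2 of the 12. Of 21 further intercalated cell genes 1 fell, the proton pump subunit Atp6v0a4, which the proximal tubule also expresses (-0.21, adjusted p 0.0170). An unadjusted p under 0.05 was found for 6 of the 21. These counts stand beside 3.7% of all genes called lower and 23.1% with an unadjusted p under 0.05.

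Of 15 further genes listed for the principal cell 1 rose, against 1.83% of all genes called higher. Tsc22d3, which encodes GILZ, a protein induced by glucocorticoids and aldosterone that acts with SGK1 on ENaC, had 43.5, 38.5, 47.1 and 49.0 CPM in PT-2385 kidneys, against 29.8, 37.8, 33.2 and 36.0 CPM in vehicle kidneys. The 4 PT-2385 libraries lay above the 4 vehicle libraries, narrowly so for PT-2385 replicate 2. Tsc22d3 had a log2 fold change of 0.39 ± 0.08 (adjusted p 0.0147). Of the 15, 12 had log2 fold changes above 0 (51.5% of all genes) and 6 an unadjusted p under 0.05 (23.1% of all genes). The 6 included Tsc22d3, Per1 and Hsd11b1, which ovary also expressed (71.0, 94.6 and 6.44 CPM with vehicle). These counts are therefore not read as particular to the principal cell. Per1, a clock gene, had the highest log2 fold change of the list, 0.51 ± 0.20, with overlapping groups (adjusted p 0.185). Nedd4l, the ubiquitin ligase that removes ENaC, had the lowest, -0.15 (adjusted p 0.119). Neither passed.

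Markers of other kidney cell types moved in the same libraries. Over all genes tested, 3.7% were called lower and 1.83% higher. An unadjusted p under 0.05 was found for 23.1%, and a log2 fold change above 0 for 51.5%. The proximal tubule list had 5 of 14 genes called lower (Cubn, Aqp1, Fbp1, Slc27a2 and Slc13a3) and 0 called higher, with 13 of 14 log2 fold changes below 0. Its summed level was between 26880 and 28900 CPM with PT-2385 and between 29510 and 32070 CPM with vehicle. The podocyte list had 2 of 7 genes called higher (Wt1 and Synpo) and summed to between 774 and 896 CPM with PT-2385 and between 640 and 777 CPM with vehicle. All 7 podocyte genes had log2 fold changes above 0 and an unadjusted p under 0.05. None of 8 endothelial, 7 fibroblast and pericyte, 6 red cell or 7 thin limb and urothelial genes was called. Log2 fold changes were above 0 for all 8 endothelial genes (4 with an unadjusted p under 0.05) and for 6 of the 7 thin limb and urothelial genes (median 0.34). All 6 macrophage and lymphocyte genes tested had log2 fold changes below 0, and 1 of them, the macrophage gene Csf1r, was called lower. Of 8 injured tubule genes, Clu was called higher, while Havcr1 was lower in all 4 PT-2385 libraries (log2 fold change -0.61) and did not pass (adjusted p 0.117). None of these lists had a gene at 0 in all 8 kidney libraries, and their part in the values of the distal nephron genes was not tested.

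The ovary served to show which of these genes belong to both organs. Ovary and kidney RNA were isolated by different methods, so levels are not compared by a test. In ovary, 13 of the 34 genes had at most 6 read pairs in each of 7 of the 8 libraries. They were Umod, Slc12a1, Kcnj1, Bsnd, Cldn16, Slc12a3, Pvalb, Trpv5, Aqp4, Avpr2, Scnn1g, Slc26a4 and Foxi1. The eighth library, vehicle replicate 1, was apart.

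Ovary vehicle replicate 1 held 122 read pairs of Umod, 131 of Slc12a1, 81 of Slc12a3, 32 of Kcnj1 and 7 of Bsnd. The 13 genes together had 408 read pairs there, against 4 to 14 in each of the other 7 ovary libraries. Their level in that library was 0.264% of their level in vehicle kidneys. Gene by gene the level there was 0.266% of that in vehicle kidneys for Umod, 0.259% for Slc12a3, 0.250% for Aqp4 and 0.294% for Slc26a4, and ran from 0.149% for Scnn1g to 0.339% for Kcnj1. Avpr2, with 4 read pairs there and few in kidney, was outside this range at 39.2%. Pvalb and Avpr2 did not set that library apart. Each had 4 read pairs there and 4 in PT-2385 replicate 2. The summed proximal tubule markers showed the same library apart, with up to 130.0 CPM among vehicle ovaries and up to 50.8 CPM among PT-2385 ovaries.

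**Figure D4:**
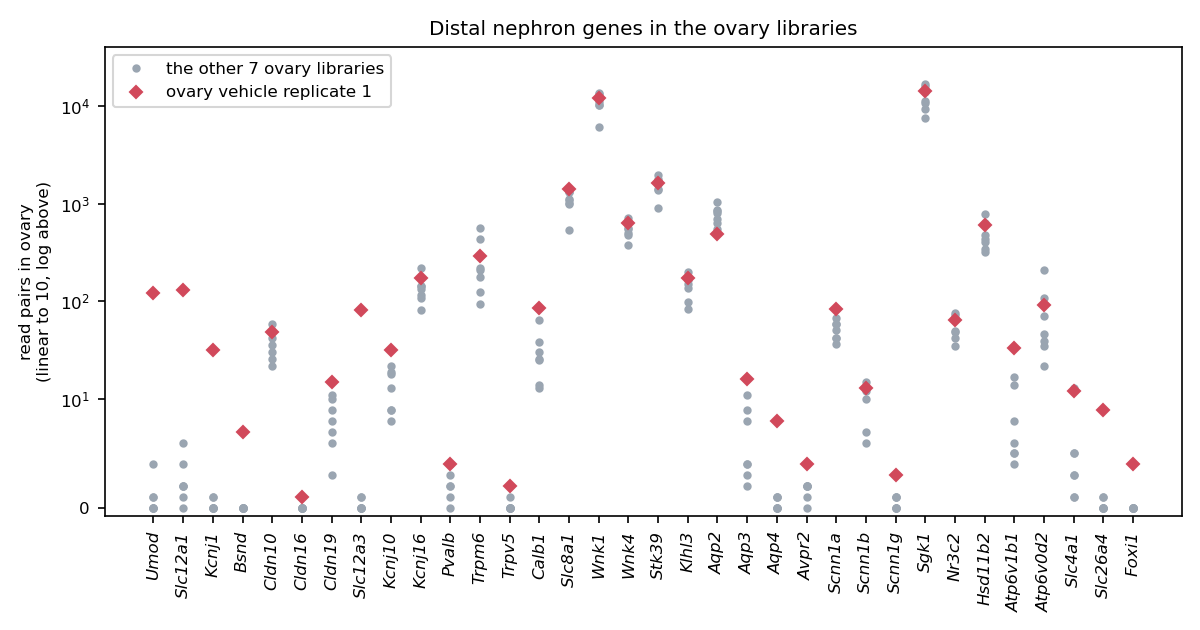
Read pairs of the 34 distal nephron genes in the 8 ovary libraries (vertical axis linear to 10 and logarithmic above); diamonds are vehicle replicate 1 and grey points the other 7 libraries. Umod and Slc12a1, with at most 6 read pairs in each of the other libraries, have 122 and 131 in vehicle replicate 1. Sgk1, Wnk1, Stk39 and Slc8a1 are abundant in all 8.

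A share of 0.264% would account for 55.5 of the 85 read pairs of Calb1 and 41.5 of the 175 of Kcnj16 in that library. For genes that ovary itself expresses the same share is small, at 8.37 of 14098 read pairs of Sgk1, 20.6 of 490 of Aqp2 and 3.12 of 288 of Trpm6.

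In ovary 18 of the 34 genes could be tested and 0 were called by edgeR, where 0.0497% of all 18125 genes were called, 0.00552% higher and 0.0441% lower. Of the 18, 5 had an unadjusted p under 0.05, against 13.2% of all ovary genes. DESeq2 called 2 (Aqp2 higher and Trpm6 lower), and 2.17% of all genes it adjusted, and limma-voom called 0 of the 18. Aqp2 and Trpm6 are described because of these values. Aqp2 had 32.3, 33.4, 33.9 and 32.3 CPM in PT-2385 ovaries, against 15.9, 22.7, 24.2 and 21.4 CPM in vehicle ovaries. The groups did not overlap, and vehicle replicate 1, the library with kidney transcripts, was the lowest. In ovary 3.18% of all genes lay higher in every PT-2385 library and 3.77% lower, as Klhl3 did among the 18. The log2 fold change was 0.65 ± 0.11 (adjusted p 0.0554). It was called in 6 of 16 alternatives, with adjusted p between 1.04e-06 and 0.259, and was 0.53 without vehicle replicate 1.

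Trpm6 had 5.55, 8.02, 5.01 and 5.55 CPM in PT-2385 ovaries, against 9.32, 18.2, 6.69 and 14.7 CPM in vehicle ovaries. The groups overlapped in 1 place, where PT-2385 replicate 2 passed vehicle replicate 3. Trpm6 had a log2 fold change of -1.01 ± 0.30 (adjusted p 0.229).

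Sgk1 was abundant in ovary, with 448, 432, 374 and 338 CPM in PT-2385 ovaries, against 456, 541, 424 and 537 CPM in vehicle ovaries. The groups overlapped and the log2 fold change was -0.30 ± 0.11 (adjusted p 0.280). The response in kidney minus that in ovary was 0.74 ± 0.14 (log2, SE) for Sgk1, with an adjusted p of 0.0342 in the test over 19977 genes, of which 0.19% were called. The test took all 16 libraries as independent. The labels do not say whether kidney and ovary libraries came from the same mice. Sgk1 was the 1 gene called of the 18 tested in both organs. That call was lost when any 1 of 10 libraries was left out, at adjusted p between 0.0506 and 0.114. These were kidney PT-2385 replicates 1 (0.0596), 3 (0.0870) and 4 (0.101), kidney vehicle replicates 2 (0.0921), 3 (0.0506) and 4 (0.0599), ovary PT-2385 replicates 2 (0.0512) and 3 (0.114), and ovary vehicle replicates 1 (0.0572) and 4 (0.0541). Without ovary vehicle replicate 3 the count of genes called was 3. The difference for Aqp2 was -0.53 ± 0.17 and did not pass (adjusted p 0.228).

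**Figure D5:**
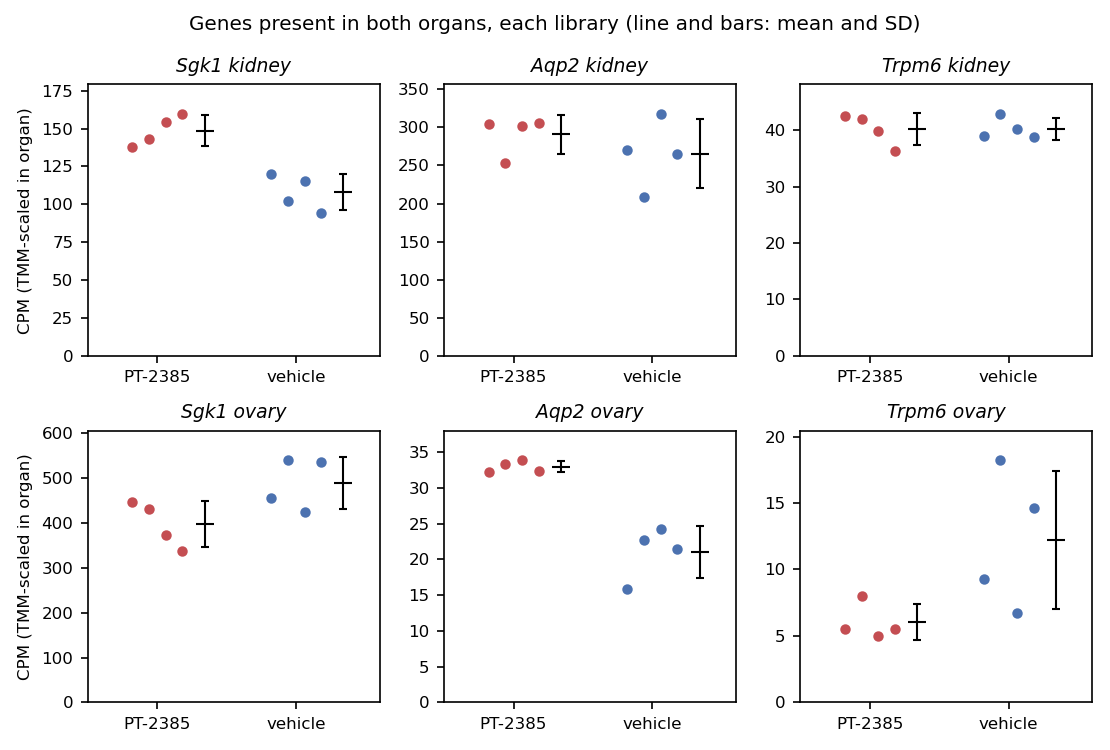
Scaled CPM (vertical axis, from 0, scaled within the organ) of Sgk1, Aqp2 and Trpm6 in kidney (upper row) and ovary (lower row), with PT-2385 libraries left and vehicle libraries right; the line and bars give mean and SD of 4 libraries. Sgk1 is higher in all 4 PT-2385 kidneys and overlaps in ovary, and Aqp2 is higher in all 4 PT-2385 ovaries and overlaps in kidney.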

How the data were processed

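Poly(A) RNA was sequenced from stranded libraries, per the labels' protocols. The deposited values are counts of read pairs per gene, made by the authors with featureCounts 2.0.6 on GENCODE vM27 basic and GRCm39, per the file headers, with no strand option in the recorded command. FastQC and STAR are named in the submitters' processing notes, and their versions are not given in the sources used here. Symbols came from GENCODE M21 by gene identifier (52083 of 55359), which matched all 34 genes, and promoter windows from RefSeq (GRCm38.p6). Each organ was fitted alone with edgeR 4.0.16 (R 4.3.3; robust quasi-likelihood, TMM, filterByExpr at count 10 and total 15), and Benjamini-Hochberg adjustment ran over all genes tested. Organ responses were compared in a fit of all 16 libraries. The alternatives tried were scaling by median ratio or upper quartile, no filter, 1 CPM in 4 libraries, DESeq2 1.42.0, limma-voom (3.58.1), a replicate block, a fit of all 16 libraries, no mitochondrial or haemoglobin genes, and each library left out. Leaving out both PT-2385 kidney libraries of unusual depth was added after the depths had been seen. Values in every library are given for the 8 genes of smallest p in kidney and for Umod, Slc12a1, Slc12a3, Aqp2 and Slc4a1. The genes and lists were chosen with earlier results of these data known. Ovary vehicle replicate 3, numbered 5 in its deposited name, stayed in its labelled group. Figures used matplotlib 3.10.9.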

Additional observations from a re-analysis of the deposited data

Results flagged for a closer look

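Among 102 sets of 4 libraries (each gene with enough counts, in each organ and treatment), 9 had 1 library far from the other 3, measured as its gap to the nearest library over the range of the set. About 1 set in 20 is picked out this way by chance. In PT-2385 kidneys, replicate 2 was lowest for Aqp2 (gap 0.919 of the range) and for Aqp3 (0.851), both water channels of the principal cell, and it was also the shallowest library. In vehicle kidneys, replicate 1 was highest for Slc12a1 (0.889) and lowest for Slc4a1 (0.844). Vehicle replicate 2 was lowest for Cldn16 (0.972) and for Kcnj1 (0.839). Vehicle replicate 3 was highest for Scnn1b (0.838), and vehicle replicate 4 was lowest for Kcnj16 (0.856). In ovary, PT-2385 replicate 2 was lowest for Nr3c2 (0.887). None of these 9 sets belonged to a gene called in kidney.

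The response of Sgk1 differed between the organs, by 0.74 (log2, kidney minus ovary) in the test of the difference itself (adjusted p 0.0342). That test took all libraries as independent, and whether the organs came from the same mice is not given. The call was lost when any 1 of 10 libraries was left out, at adjusted p of up to 0.114. The kidney response was 0.46 and the ovary response -0.30.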

How the results depend on the processing

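The count of distal nephron genes called in kidney (4) was 7 with no filter, 8 with DESeq2, 7 with the replicate block, 1 in the fit of all 16 libraries and 1 without both PT-2385 libraries of unusual depth. With single libraries left out it ran from 1 to 9. The count over all kidney genes (982) was 1761 with no filter, 1455 with DESeq2, 286 in the fit of all 16 libraries and 211 without both PT-2385 libraries of unusual depth, and ran from 240 to 1370 with single libraries left out. In ovary the count of distal nephron genes (0) was 1 with no filter, 2 with DESeq2, 2 with the replicate block and 1 in the fit of all 16 libraries, and ran from 0 to 2. The count for the organ difference (1) ran from 0 to 3. The cause of these shifts was not tested, apart from the fewer libraries where some were left out. The replicate numbers do not pair the libraries by the labels. Correlations of same-numbered deviations ran from -0.06 to 0.05 in kidney and from -0.17 to 0.24 in ovary. In both organs numbers 2 and 3 matched best with their own number. PT-2385 replicate 1 matched best with vehicle replicate 4, and PT-2385 replicate 4 with vehicle replicate 1, again in both organs. The block used the same numbers as pairs, and other pairs were not tested. Under the block Slc12a3 (adjusted p 0.0396), Wnk4 (0.0219) and Foxi1 (0.0297) were also called in kidney, and Aqp2 (0.00307) and Trpm6 (0.00730) in ovary. No log2 fold change of a called gene changed sign. Of 594 kidney values under alternatives, 16 had another sign, in 7 genes with a log2 fold change of at most 0.05 in size. Another scaling left 22 of the 33 genes above 0 and moved the median of all genes by less than 0.01. Avpr2 had too few counted read pairs for a test, and most of its exon bases are shared with Arhgap4.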
